A study of Mus musculus with 15 samples.

Results

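The transverse aortic constriction (TAC) response of the mouse heart was compared between 2 genotypes. For each gene the TAC minus sham difference in KO-labelled hearts (filed as KO) was set against that in Cre-labelled hearts (filed as Cre). This difference of responses used 14 of the 15 arrays. Male C57BL6 mice aged 10 weeks were operated on, and RNA of the heart apex was taken 3 days later. Mice filed as Cre had the genotype MHC-cre, and those filed as KO had MHC-cre-klf4. All animals thus carried cre, and the KO label adds loss of Klf4, which encodes a DNA-binding zinc-finger protein. The myosin heavy chain promoter drives cre in heart muscle cells, so other cells of the apex are outside the reach of the deletion. Sham groups held 4 arrays for each genotype and TAC groups held 3, and nothing in the labels pools hearts. The p-values measure the spread between these arrays.

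KO TAC replicate 4 was left out. It had 95.9% of probes well above background and a median signal of 445.4, against 65.6% to 75.4% and 83.7 to 141.5 on the other arrays. Its correlation with the rest had a median of 0.807, where all others had 0.961 to 0.982. The arrays lay on 4 slides, and slides 1 and 3 held all 4 groups. Defining genes of heart muscle were bright in every group: the median level of 13 cardiomyocyte markers lay between 7.71 and 8.18 on all 14 arrays. Here and below a level is log2 signal relative to the 75th percentile of its array, so levels are compared between arrays and not between genes.

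The sign of every genotype difference is unsettled. The authors' value table holds these 14 arrays too, and each of them stands there under the other genotype, with the same operation. Groups below follow the scanner files. Under the genotypes of the value table the differences of responses turn sign: fitted on all 15 columns of that table, without the slide, 182 features were called and 0 of the 322 features described below had the sign given here. The targeted gene did not separate the genotypes. Klf4 read 3.87, 4.04, 3.72 and 4.30 in Cre sham hearts and 4.25, 3.99 and 4.16 in Cre TAC hearts. It read 4.49, 3.26, 4.03 and 3.98 in KO sham hearts and 4.23, 4.50 and 4.35 in KO TAC hearts. All 4 groups overlapped, and its responses differed by 0.32 ± 0.28 (log2, SE; limma adjusted p = 0.584). The labels do not say which part of the gene was deleted, so whether its probe checks the genotype is unknown.

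TAC raises the resistance against which the left ventricle ejects. In the first days the heart muscle cells switch on stress and fetal genes, leukocytes enter, fibroblasts begin to make matrix, and genes of oxidative metabolism fall. Klf4 belongs to the Kruppel-like factors, which bind GC-rich and CACCC-type DNA and are known in heart muscle as restraints on hypertrophic growth and as regulators of mitochondrial genes.

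The TAC responses differed between the genotypes for 322 of 25095 features, which is 1.28% (limma with slide as a block, adjusted p under 0.05). The difference was higher in KO for 116 (0.462%) and lower for 206 (0.821%). At an unadjusted p under 0.05 there were 4633. Of the called features 212 carried a gene symbol, 67 higher and 145 lower. The balance of directions moved with the scaling: 36.0% were higher here, 46.7% with scaling to the median, 49.2% on the authors' values and 50.9% after normexp with quantile normalization. TAC itself moved 5839 features in Cre hearts (23.3%; 11.9% up and 11.3% down) and 10742 in KO hearts (42.8%; 19.5% up and 23.3% down). Between genotypes 16 features were called after sham (0.0638%), 6 higher (0.0239%) and 10 lower (0.0398%) in KO, and 4362 after TAC (17.4%).

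The count of 322 moved by more than 1.5 times with any 1 array left out. Without Cre sham replicates 1 to 4 it was 40, 41, 31 and 23, and without Cre TAC replicates 1 to 3 it was 17, 687 and 112. Without KO sham replicates 1 to 4 it was 71, 26, 41 and 184, and without KO TAC replicates 1 to 3 it was 144, 43 and 18. In each of these fits all 322 features had the sign of the full fit. They were chosen in that fit, and each other fit uses all but 1 of its arrays. The kept signs are therefore no independent support. Of the other counts, that of TAC calls filed as Cre fell to 3805, 1915, 2072 and 1655 without Cre sham replicate 2, Cre sham replicate 3, Cre TAC replicate 1 and Cre TAC replicate 2. Calls between genotypes after TAC fell to 981, 1797 and 1206 without Cre TAC replicate 1, Cre TAC replicate 3 and KO TAC replicate 3. Calls after sham went to 7, 6, 7 and 9 without Cre sham replicates 1, 2 and 3 and KO sham replicate 4, and to 65 without KO sham replicate 3.

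Most differences were responses seen in the KO hearts and not called in the Cre hearts. Of the 322 features, 191 were called for TAC in KO only, 75 with a higher and 116 with a lower difference. A further 71 moved the same way in both genotypes and further in KO, 21 with a higher and 50 with a lower difference. In 38 the responses had opposite signs and both were called, 15 with a higher and 23 with a lower difference. Only 19 were called for TAC in Cre alone, and 3 moved further in Cre than in KO. Among the 206 lower features the median response was -0.10 in Cre and -1.51 in KO, and among the 116 higher ones it was 0.06 in Cre and 1.12 in KO.

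**Figure D1:**
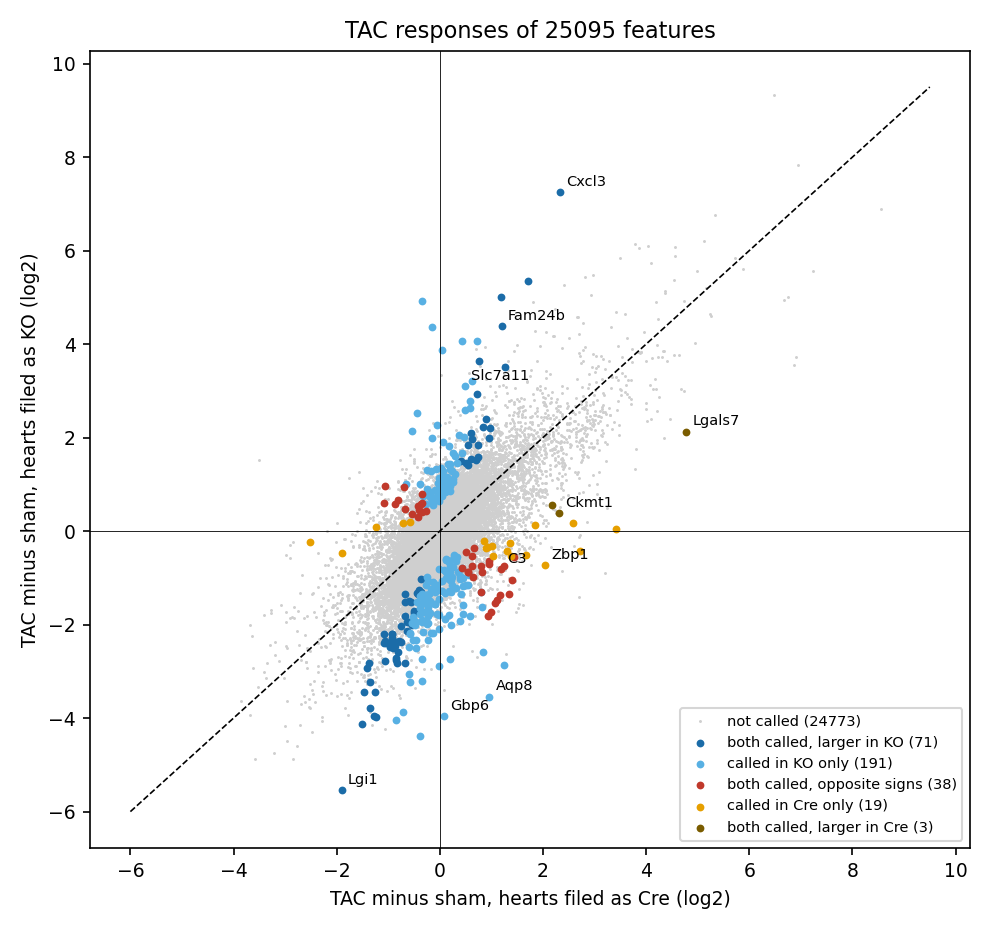
TAC minus sham (log2) in hearts filed as KO, vertical axis, against that in hearts filed as Cre, horizontal axis, for 25095 features. Coloured points are the 322 called features by class and the dashed line marks equal responses; most called points lie near 0 on the Cre axis and far from 0 on the KO axis.

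A larger response in KO was also the rule among features that TAC moved in the average of both genotypes. There were 12670 of these (50.5%), 5720 higher and 6950 lower after TAC. The median ratio of the KO to the Cre response was 1.42. It was 1.34 among the features that rose, where 67.9% moved further in KO, and 1.49 among those that fell, where 76.1% did. The median rise was 0.54 in Cre and 0.75 in KO, and the median fall was -0.47 in Cre and -0.74 in KO. Within slide 1 the ratio was 1.41 and within slide 3 it was 1.82. Leaving out 1 array gave 1.12 (without Cre TAC replicate 3) to 1.71 (without Cre TAC replicate 2). This ratio is a description with no test.

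Genes with an added rise in KO included secreted signals and a receptor subunit. Cxcl2 and Cxcl3 encode chemokines that draw neutrophils, and Areg encodes a ligand of the epidermal growth factor receptor. Clcf1 is a cytokine that signals through gp130, and Il20rb is a receptor subunit for interleukins of the interleukin-20 group. The promoters of both chemokines are shown because the genes responded together and both windows hold a kappa B site, the DNA element of the NF-kappa B factors that mediate inflammatory induction. These are the 250 bases before the start of each gene, from RefSeq on GRCm38.p6, plus strand, chr5:90903649-90903898 for Cxcl2 and chr5:90785851-90786100 for Cxcl3, with matches to GGNNTTTCC in capitals.
Cxcl2: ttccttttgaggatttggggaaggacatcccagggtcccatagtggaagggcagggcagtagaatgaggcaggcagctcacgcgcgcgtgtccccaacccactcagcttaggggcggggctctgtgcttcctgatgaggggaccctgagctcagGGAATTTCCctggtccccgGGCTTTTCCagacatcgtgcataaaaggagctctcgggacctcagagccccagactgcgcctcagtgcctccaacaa
Cxcl3: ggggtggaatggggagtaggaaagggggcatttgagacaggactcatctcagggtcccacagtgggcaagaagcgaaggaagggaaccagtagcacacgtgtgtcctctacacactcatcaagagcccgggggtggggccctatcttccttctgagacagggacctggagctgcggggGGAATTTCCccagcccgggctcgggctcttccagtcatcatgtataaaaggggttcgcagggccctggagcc
The Cxcl2 window holds GGAATTTCC 96 to 88 bases and GGCTTTTCC 77 to 69 bases before the start, and the Cxcl3 window holds GGAATTTCC 72 to 64 bases before it. On either strand GGNNTTTCC occurs in 4.93% of 32851 such windows. It occurs in 6 of 54 windows of called genes with a higher difference (11.1%) and in 4 of 115 with a lower one (3.48%). Cxcl2 and Cxcl3, shown for this motif, are themselves counted among the 6.

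Cxcl2 read -7.97, -7.93, -7.85 and -7.90 in Cre sham hearts and -7.76, -6.76 and -8.10 in Cre TAC hearts. It read -7.84, -7.22, -7.85 and -8.79 in KO sham hearts and -4.04, -2.92 and -4.61 in KO TAC hearts. The KO TAC hearts stood above all others, and in the other 3 groups the probe was not well above background on any array. For such a group only a bound on a fold can be given: the mean of the brighter group against, on each array of the dim group, the higher of the lowest signal among probes well above background and the signal of the probe itself. So bounded, Cxcl2 was at least 6.37-fold higher after TAC than after sham in KO, and at least 5.30-fold higher in KO than in Cre after TAC (adjusted p of the difference of responses 0.0400).

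Cxcl3 read -8.85, -8.67, -8.95 and -7.81 in Cre sham hearts and -4.45, -5.31 and -8.62 in Cre TAC hearts. It read -7.83, -9.03, -9.15 and -8.77 in KO sham hearts and -2.10, 0.43 and -2.85 in KO TAC hearts. The KO TAC hearts again lay above all others, and 2 of the 3 Cre TAC hearts were above their shams while Cre TAC replicate 3 was not. Cxcl3 was not well above background on any sham array, and after TAC in KO it was at least 32.6-fold higher (adjusted p of the difference 0.0350). Of 37 measured cytokines and chemokines Cxcl2 and Cxcl3 had a higher difference (5.41%, against 0.462% of all features) and 0 a lower one. Cxcl2 entered the features tested through the KO TAC hearts alone, so this share is no support for a rise of the list. The median difference over the list was -0.08 against -0.04 over all features.

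Slc7a11, which exchanges cystine for glutamate across the cell membrane, read -8.66, -8.46, -8.69 and -7.74 in Cre sham and -6.89, -8.08 and -8.37 in Cre TAC hearts. KO hearts gave -7.66, -8.85, -8.90 and -8.54 after sham and -6.05, -4.31 and -5.62 after TAC. Only the KO TAC hearts were above background. There it was at least 2.30-fold higher than after sham and at least 1.92-fold higher than in Cre TAC hearts (adjusted p of the difference 0.00808, and 0.14 with no slide block). Areg was at least 2.12-fold higher after TAC in KO and dim in the other 3 groups (adjusted p 0.0204). Slc6a19, a transporter of neutral amino acids, was at least 4.56-fold higher in the same way (adjusted p 0.0401). Cxcl2, Slc7a11, Areg and Slc6a19 passed the filter of 3 arrays well above background through the KO TAC hearts alone, as did 2 unnamed probes of the 322. Their differences are therefore measured against signals at background in the other 3 groups, and their p-values are no support beyond the bounds given. After normexp and quantile normalization the difference was 0.44 for Slc7a11, 0.26 for Areg and 0.68 for Slc6a19, with none of these 3 called (adjusted p 0.106, 0.137 and 0.057), and 0.94 for Cxcl2, which was (0.042). On the authors' values it was 0.90 for Slc7a11 and 0.46 for Areg, again not called (adjusted p 0.068 and 0.116).

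B3gnt5, an enzyme of glycosphingolipid synthesis, read -6.23, -6.03, -5.59 and -5.58 in Cre sham and -5.07, -4.80 and -5.57 in Cre TAC hearts. The KO values were -5.27, -5.25, -6.15 and -5.65 after sham and -2.69, -2.45 and -3.01 after TAC. The KO TAC hearts stood clear of the rest, while the Cre TAC hearts lay within the range of the KO shams or above it. It rose by 0.72 in Cre and by 2.92 in KO, a difference of 2.20 ± 0.23 (adjusted p 0.00875). The call was lost with all 15 arrays and with no slide block (adjusted p 0.089 and 0.055), and the difference was 1.05 after normexp and quantile normalization. Fam24b rose by 1.20 in Cre and 4.39 in KO, and Asprv1, an aspartic protease, by 1.27 and 3.50. Both were called in each genotype.

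The other genes of largest added rise were called for TAC in KO only. Adamts4, a protease that cleaves aggrecan and versican, read between -3.38 and -3.01 in Cre sham and between -2.93 and -2.20 in Cre TAC hearts. In KO it read between -4.06 and -3.45 after sham and between -1.54 and -0.23 after TAC. Its response was 0.58 in Cre and 2.64 in KO. Of the 46 measured genes of the matrix list it was the only one called (2.17%, against 1.28% of all features). Col9a2, Dpt and Fbln1, described below, also encode matrix proteins but are not on that list, and their differences were called lower. Clcf1 had responses of -0.15 and 1.99, Il20rb of 0.47 and 2.01, and Tcte3 of 0.49 and 2.59. Emp2, a tetraspan membrane protein, had -0.17 and 1.28, and Magi1, a scaffold of cell junctions, had 0.25 and 1.68. Eid3 had 0.17 and 1.82. Pde4b, a cyclic AMP phosphodiesterase, had -0.39 and 1.01, but its 3 probes did not all have 1 sign (1.40, -0.60 and 1.43). Ifrd1 rose in both genotypes, by 0.41 and 1.50.

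Stress genes moved both ways. Txnrd1, the cytosolic thioredoxin reductase, read between 2.92 and 3.35 in Cre sham, 3.19 and 3.58 in Cre TAC, 3.21 and 3.39 in KO sham, and 4.26 and 4.73 in KO TAC hearts. KO TAC hearts lay above all others. Its response was 0.23 in Cre and 1.29 in KO (difference 1.06 ± 0.18, adjusted p 0.0350). It was the only one called of 29 heat shock and antioxidant genes (3.45%, against 1.28% of all features). Xbp1, a transcription factor of the unfolded protein response, rose by 0.83 in KO, with 0.09 in Cre. Herpud1, a component of the disposal of misfolded proteins at the endoplasmic reticulum, fell by 1.54 in KO, with -0.28 in Cre. Xbp1 and Herpud1 were the only ones called of 30 genes of the integrated stress and unfolded protein responses (6.67%, against 1.28% of all features).

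These calls were uneven in how far they rested on 1 array. Among the genes with a higher difference, Slc7a11 and B3gnt5 kept their calls in 14 of the 14 fits that leave out 1 array, and Areg and Nle1, described below, in 10. Slc7a11, Areg, Cxcl2 and Slc6a19 passed the filter through the KO TAC hearts alone. For these genes a kept call is no support beyond the bounds given. The call of Areg was lost without Cre sham replicate 4, Cre TAC replicate 1, KO sham replicate 2 and KO TAC replicate 3 (adjusted p 0.054, 0.083, 0.066 and 0.082). Fam24b and Ifrd1 kept theirs in 4 fits, Clcf1, Eid3 and Pde4b in 3, Cxcl2, Cxcl3, Slc6a19, Asprv1, Txnrd1, Emp2 and Adamts4 in 2, and Il20rb, Tcte3, Magi1, Xbp1 and Lbh in 1. In those fits 0 of the 59 called genes that the naming rule picks changed sign, but these were chosen as called in the full fit. Of these 59, 15 kept their call with no slide block, 54 with slide as a random block, 10 with all 15 arrays and 18 with no filter on dim probes. After normexp and quantile normalization 49 kept it and 26 had a difference more than 1.5 times smaller, and on the authors' values 53 kept it and 15 were that much smaller. Cxcl3 was among them, at 2.36 (adjusted p 0.059, not called) and 3.03 (0.049).

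**Figure D2:**
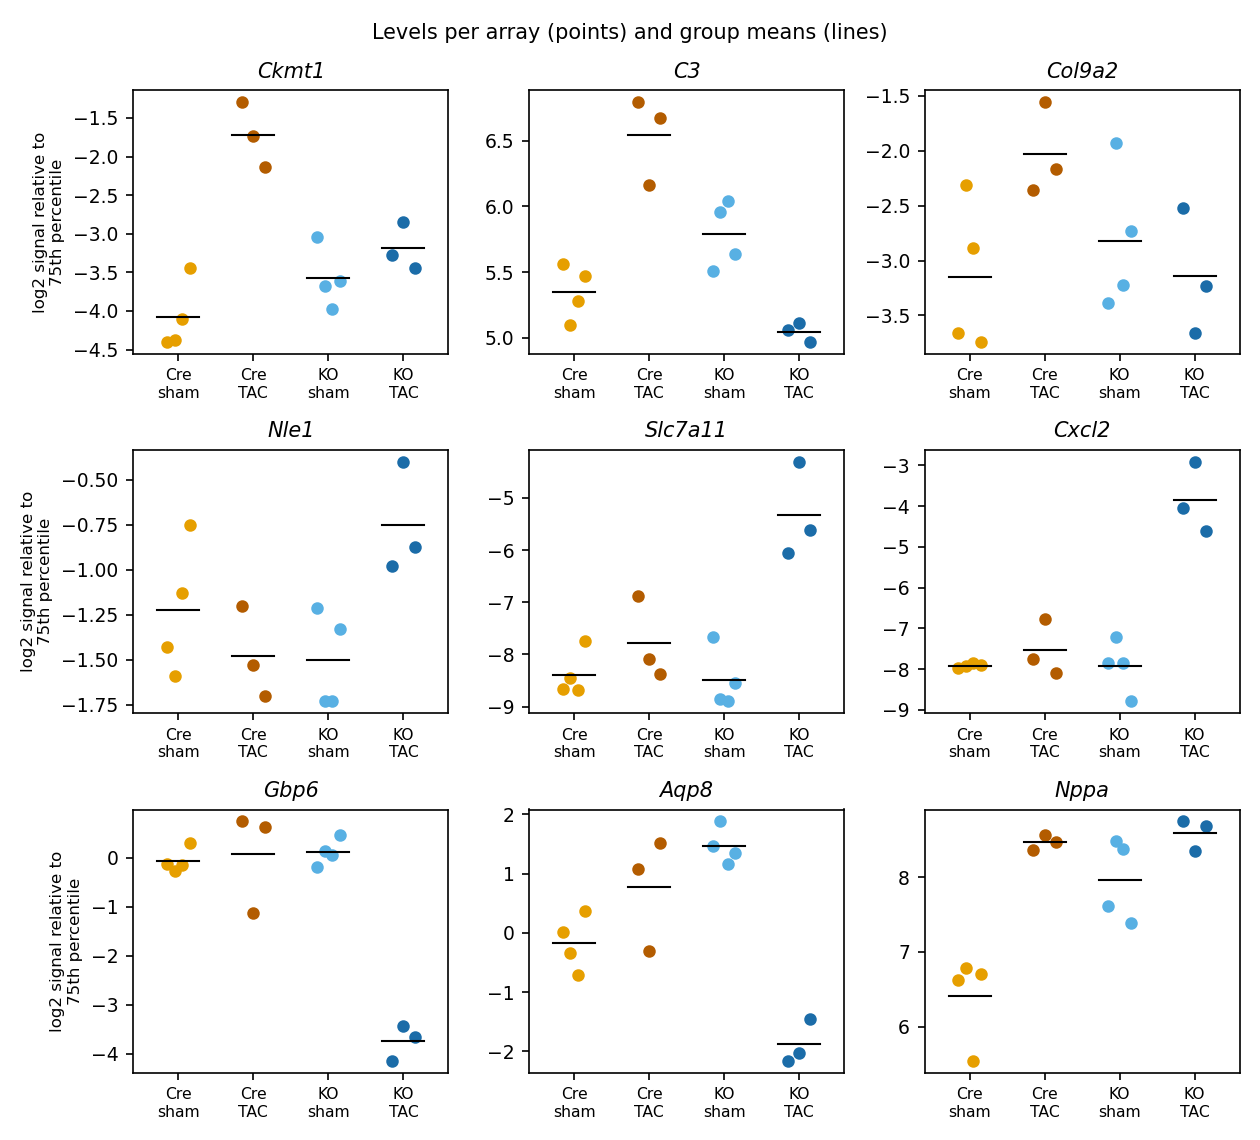
Level (log2 signal relative to the 75th percentile of the array) of 9 genes in the 4 groups, with 1 point per array and a line at the group mean. KO TAC hearts stand apart from the other 3 groups for Slc7a11, Cxcl2, Gbp6 and Aqp8, Cre TAC hearts for Ckmt1 and C3, and Cre sham hearts for Nppa; the groups of Col9a2 overlap before the slide is taken into account.

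Several of the largest lower differences were falls in KO hearts that were not called in Cre hearts. Aqp8, a water and peroxide channel, read 0.01, -0.34, -0.72 and 0.37 in Cre sham and 1.08, -0.30 and 1.52 in Cre TAC hearts. Hearts of the KO group read 1.46, 1.88, 1.16 and 1.34 after sham and -2.16, -2.03 and -1.46 after TAC. KO hearts were higher than Cre shams before TAC and the lowest of all after it. The response was 0.96 in Cre (adjusted p 0.062) and -3.54 in KO, and the difference of -4.50 ± 0.47 (adjusted p 0.00875) was called without each of the 14 arrays.

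Gbp6, an interferon-inducible GTPase, read -0.13, -0.26, -0.15 and 0.30 in Cre sham and 0.74, -1.12 and 0.62 in Cre TAC hearts. KO animals showed -0.19, 0.14, 0.05 and 0.47 after sham and -4.14, -3.43 and -3.65 after TAC. The 2 sham groups overlapped, and the KO TAC hearts lay more than 2 log2 units below every other heart. The response was 0.08 in Cre and -3.96 in KO, a difference of -4.04 ± 0.55 (adjusted p 0.0230).

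Sesn1, a stress-induced inhibitor of growth signalling, read 4.77, 4.70, 4.37 and 4.50 in Cre sham and 4.84, 4.05 and 4.57 in Cre TAC hearts. For KO the levels were 5.05, 4.50, 4.99 and 4.51 after sham and 2.36, 2.87 and 2.81 after TAC. The 3 KO TAC hearts stood alone. It fell by 2.18 in KO, with -0.14 in Cre (difference -2.04 ± 0.21, adjusted p 0.00875). Its 3 probes gave -2.04, -1.79 and -1.98.

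Pipox, a peroxisomal oxidase of sarcosine and pipecolic acid, fell by 2.73 in KO, with 0.21 in Cre (difference -2.94 ± 0.29, adjusted p 0.00808). Ttc39a fell by 3.21 in KO, with -0.35 in Cre (difference -2.85 ± 0.28, adjusted p 0.00808). For both genes the KO TAC hearts were the lowest 3, from -5.46 to -4.83 for Pipox and from -4.49 to -4.47 for Ttc39a. Every other heart read at least -3.43 and at least -2.79. Fn3k, a kinase that removes sugars bound to proteins, fell by 4.05 in KO, with -0.86 in Cre, and its 2 probes gave differences of -3.19 and -1.20. The second probe had responses of -2.35 in Cre and -3.56 in KO, and Fn3k was not called with the mean over its probes. Ip6k3, an inositol hexakisphosphate kinase of muscle, fell by 2.58 in KO, with 0.85 in Cre.

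Several genes fell in both genotypes and further in KO. Lgi1, a secreted leucine-rich protein, read -1.97, -2.14, -2.62 and -1.85 in Cre sham and -3.63, -4.60 and -3.43 in Cre TAC hearts. In KO it read -1.49, -3.64, -3.00 and -2.56 after sham and -8.67, -7.39 and -8.27 after TAC, where it was not well above background. It was at least 12.4-fold lower after TAC in KO and at least 5.37-fold lower in KO than in Cre after TAC (adjusted p of the difference 0.0235). The 2 probes of Lgi1 gave differences of -3.64 and -1.56, and the mean over them was not called. Asb15 and Asb10 belong to a family of adaptors of ubiquitin ligases that is strong in muscle. Asb10 fell by 0.68 in Cre and by 2.81 in KO. Asb15 fell by 1.24 in Cre and was at least 5.32-fold lower after TAC in KO, where it was dim.

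Cnga3, a subunit of a cyclic nucleotide-gated channel, fell by 1.50 in Cre and was at least 5.99-fold lower after TAC in KO, where it was also dim. Cpxm2 fell by 1.34 and 3.78, and Tmem86a, a lysoplasmalogenase, by 1.08 and 2.20. Kcnh2, the channel of the rapid delayed rectifier current of heart muscle, fell by 0.60 in Cre and by 1.49 in KO. It was the only one called of 27 heart muscle ion channels (3.70%, against 1.28% of all features), a list with a median difference of -0.46. Armc2 and Lrat, which esterifies retinol, were dim after TAC in KO and at least 6.75-fold and at least 4.37-fold lower there than after sham. Their responses in Cre were -0.38 and -0.59 and were not called.

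Aqp8, Sesn1, Pipox and Ttc39a kept their calls without each of the 14 arrays, and Armc2 in 12 fits (it was lost without Cre TAC replicate 1 and KO TAC replicate 3, at adjusted p 0.066 and 0.070). Lgi1 kept its call in 8 fits, Fn3k in 6, Gbp6 in 5, Asb10, Asb15, Tmem86a and Lrat in 4, Cnga3 in 3, Cpxm2 and Ip6k3 in 2, and Herpud1 and Kcnh2 in 1. The highest adjusted p among them was 0.17, for Kcnh2. Pipox and Ttc39a lost their calls with all 15 arrays (-2.20 and -2.08, adjusted p 0.29 and 0.34). The genes dim after TAC in KO shrank under another background treatment. After normexp and quantile normalization the difference was -0.60 for Lgi1, -0.34 for Asb15, -0.32 for Cnga3 and -0.51 for Lrat, none of them called (adjusted p 0.392, 0.15, 0.351 and 0.074), and -0.93 for Armc2, which was (0.046). On the authors' values Lgi1, Asb15 and Cnga3 had -1.13, -0.69 and -0.60 and were not called (adjusted p 0.172, 0.065 and 0.206).

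Genes induced by interferon fell with TAC in KO hearts. Of 34 measured members, 28 fell (82.4%, against 23.3% of all features) and 0 rose in KO, with a median of -1.18. In Cre 7 fell (20.6%, against 11.3%) and 2 rose, with a median of -0.09. After TAC 21 of the 34 were lower in KO than in Cre and 0 higher, against 9.26% and 8.13% of all features. After sham 0 were called. The difference of responses was below 0 for 34 of 34, with a median of -0.92, and passed the test for 3, Gbp6, Ifi27l2a and Irgm2, which is 8.82% against 1.28% of all features.

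Irgm2 is an immunity-related GTPase. Its promoter is shown because the interferon-stimulated response element, the site through which interferons act on such genes, is found in it. The window is the 250 bases before the start, from RefSeq on GRCm38.p6, chr11:58214727-58214976, plus strand, with matches to GAAANNGAA and to the antioxidant response element TGACNNNGC in capitals.
Irgm2: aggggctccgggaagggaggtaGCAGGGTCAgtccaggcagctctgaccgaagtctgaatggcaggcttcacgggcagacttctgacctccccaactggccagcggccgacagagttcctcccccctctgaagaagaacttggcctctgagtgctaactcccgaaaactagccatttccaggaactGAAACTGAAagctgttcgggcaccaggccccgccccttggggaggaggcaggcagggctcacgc
GAAACTGAA lies 64 to 56 bases before the start, and GCAGGGTCA, the other strand of TGACNNNGC, 228 to 220 bases before it. The 2 matches do not overlap. On either strand GAAANNGAA occurs in 7.13% of all windows, in 10 of 115 windows of called genes with a lower difference (8.70%) and in 2 of 54 with a higher one (3.70%). TGACNNNGC occurs in 10.2% of all windows, in 9 of those 115 and in 4 of those 54. Irgm2 itself is counted among the 10 and among the 9.

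Irgm2 read 2.22, 2.21, 1.99 and 2.63 in Cre sham and 2.06, 1.54 and 2.39 in Cre TAC hearts. KO hearts gave 2.69, 2.30, 2.33 and 2.12 after sham and -0.19, 0.90 and 0.82 after TAC. Only the KO TAC hearts were low. It fell by 1.96 in KO, with -0.34 in Cre (difference -1.61 ± 0.28, adjusted p 0.0379). Ifi27l2a behaved otherwise: it rose by 1.38 in Cre, with -0.54 in KO (difference -1.92 ± 0.32, adjusted p 0.0350). Zbp1, a sensor of Z-form nucleic acids, rose by 2.04 in Cre, with -0.73 in KO (difference -2.77 ± 0.43, adjusted p 0.0333). Leaving out 1 array, the calls of Ifi27l2a and Zbp1 held in 3 of 14 fits and that of Irgm2 in 2.

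Of 21 measured acute phase and complement genes, 12 rose in Cre (57.1%, against 11.9% of all features) and 0 fell (against 11.3%). In KO 9 rose (42.9%, against 19.5%) and 5 fell (23.8%, close to the 23.3% of all features). C3, the central protein of the cascade, read 5.56, 5.10, 5.28 and 5.47 in Cre sham and 6.79, 6.16 and 6.67 in Cre TAC hearts. The KO values were 5.51, 5.96, 6.04 and 5.64 after sham and 5.06, 5.11 and 4.97 after TAC. The Cre TAC hearts were the highest and the KO TAC hearts the lowest of all but for 1 overlap with Cre sham. C3 rose by 1.19 in Cre (adjusted p 0.0036) and fell by 0.81 in KO (adjusted p 0.0051), a difference of -2.00 ± 0.25 (adjusted p 0.0193). Its 2 probes gave -2.00 and -1.76, and the difference was -1.72 within slide 1 and -2.18 within slide 3.

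The difference was lower for 4 of the 21 (19.0%, against 0.821% of all features), with a list median of -0.79 against -0.04 over all features. C4b rose by 1.67 in Cre, with -0.50 in KO. C1s1, the protease of the first complement component, fell by 1.21 in KO, with 0.32 in Cre. The fourth was C1ra, its partner protease, named after its values were seen: it rose by 0.62 in Cre and fell by 0.53 in KO. The call of C3 held in 10 of the 14 fits that leave out 1 array, that of C1s1 in 5 and that of C4b in 2, with differences of C3 between -2.15 and -1.85.

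Reversed responses were also found in matrix, muscle and macrophage genes. Mybpc2, the myosin-binding protein C of fast skeletal muscle, read 3.28, 3.27, 2.46 and 3.48 in Cre sham and 4.50, 4.24 and 4.32 in Cre TAC hearts. Hearts of the KO group read 3.77, 4.76, 4.66 and 3.03 after sham and 2.93, 2.90 and 2.93 after TAC. It rose by 1.35 in Cre and fell by 1.35 in KO, and the KO shams ran from just above the KO TAC hearts to above the Cre TAC hearts. It was the only one called of 23 hypertrophy and fetal genes (4.35%, against 1.28% of all features).

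Pamr1 rose by 1.06 in Cre and fell by 1.53 in KO. Fcrls, a scavenger receptor-like protein of tissue macrophages, rose by 0.94 and fell by 1.81, and its 2 probes gave differences of -2.76 and -2.78. Dpt, the matrix protein dermatopontin, rose by 0.62 and fell by 0.75. Rubcnl was called too, but its probe was well above background on at most 2 arrays of any group, its difference of -2.73 became -0.34 after normexp and quantile normalization and -0.61 on the authors' values (adjusted p 0.113 and 0.066, not called), and no response is read from it. Fbln1, the matrix protein fibulin-1, was no reversed gene: it fell by 2.48 in KO, with -0.59 in Cre. Dpt and Fbln1 were the 2 called of 17 measured fibroblast markers (11.8%, against 1.28% of all features). Lum, which is on both lists of matrix and fibroblast genes, just missed the threshold at -1.55 ± 0.31 (adjusted p 0.0518).

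In the opposite direction, Nle1, which takes part in the assembly of the large ribosomal subunit, read -1.43, -1.59, -1.13 and -0.75 in Cre sham and -1.20, -1.53 and -1.70 in Cre TAC hearts. KO animals showed -1.21, -1.73, -1.73 and -1.33 after sham and -0.98, -0.40 and -0.87 after TAC. The Cre groups overlapped, and the KO TAC hearts were above the KO shams. It fell by 0.35 in Cre and rose by 0.79 in KO (difference 1.14 ± 0.14, adjusted p 0.0168). Lbh, a regulator of transcription in heart and limb development, fell by 0.80 in Cre and rose by 0.67 in KO. Of these reversed genes, the calls of Nle1 held in 10 of 14 fits without 1 array, of Fcrls in 7, of Pamr1 in 6, of Mybpc2 in 5, of Dpt in 3 and of Lbh in 1. That of Fbln1 held in 1.

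Responses larger in Cre were few. The one of smallest adjusted p was Ckmt1, the ubiquitous mitochondrial creatine kinase, which passes high-energy phosphate from mitochondria to creatine. It read -4.40, -4.38, -4.10 and -3.44 in Cre sham and -1.30, -1.74 and -2.14 in Cre TAC hearts. For KO the levels were -3.04, -3.68, -3.98 and -3.61 after sham and -3.27, -2.85 and -3.45 after TAC. The Cre TAC hearts stood above all others and the KO groups overlapped. Ckmt1 rose by 2.30 in Cre and by 0.39 in KO, and the difference of -1.91 ± 0.16 had the smallest adjusted p of the genes described, 0.00691. The difference was -1.95 within slide 1 and -1.73 within slide 3, and its call held without each of the 14 arrays. It was lost with no slide block (-1.97, adjusted p 0.088) and with all 15 arrays (-0.90, 0.73), and kept after normexp and quantile normalization at -1.07.

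The promoter of Ckmt1 is shown because Kruppel-like factors bind CACCC boxes and its window holds a pair of them. RefSeq gives it 2 windows on GRCm38.p6, and this one is chr2:121357526-121357775, plus strand, the 250 bases before its start, with matches to CCACACCC in capitals.
Ckmt1: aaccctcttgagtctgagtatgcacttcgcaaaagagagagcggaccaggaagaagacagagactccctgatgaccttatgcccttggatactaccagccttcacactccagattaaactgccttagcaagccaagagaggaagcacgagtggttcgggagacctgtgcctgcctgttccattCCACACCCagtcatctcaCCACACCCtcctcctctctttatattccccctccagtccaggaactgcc
The matches lie 67 to 60 and 49 to 42 bases before the start. The other window holds 0 matches to CCACACCC, though the shorter CACCC occurs in it. On either strand CCACACCC occurs in 3.20% of all windows, in 6 of 115 windows of called genes with a lower difference (5.22%) and in 0 of 54 with a higher one. Ckmt1 itself is counted among the 6. A match describes the letters and shows no binding.

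Lgals7, galectin-7, was dim in Cre sham hearts and at least 15.2-fold higher after TAC there. In KO it rose by 2.13 (adjusted p of the difference 0.0401). The third feature that moved further in Cre was an unnamed probe. Col9a2, a chain of type IX collagen, rose by 1.37 in Cre, with -0.26 in KO (difference -1.63 ± 0.18, adjusted p 0.0119). Its groups overlapped on the raw scale, from -3.74 to -2.31 in Cre sham and from -2.36 to -1.56 in Cre TAC hearts, and the difference was -1.65 within slide 1 and -1.50 within slide 3. Lgi2, of the same family as Lgi1, rose by 1.30 in Cre, with -0.42 in KO. The call of Col9a2 was lost without Cre TAC replicate 1 (adjusted p 0.065), with slide as a random block (-1.54, 0.061) and with no slide block (-1.43, 0.36). Its difference was -0.97 and called after normexp and quantile normalization. Those of Lgi2 and Lgals7 held in 2 of 14 fits.

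How much of each difference came from the sham hearts was read from its 2 parts. The difference of responses equals the KO minus Cre difference after TAC less that after sham, and the sham share is the part contributed by the second. For the 28 features dim in a group it rests in part on background signal. Over the 322 features the median sham share was 6.91%, with quartiles of -4.78% and 22.1%. The share was at most 33.3% for 281 features (87.3%), at least 66.7% for 4 (1.24%) and between these for 37 (11.5%). It was below 0 for 111, in which the sham difference had the sign of the TAC difference. It was larger among lower differences (median 11.4%) than among higher ones (2.51%). Between genotypes, 311 of the 322 features were called after TAC and 0 after sham.

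The median size of the sham difference was 0.184 among the 322 features and 0.175 among all 25095, where the median standard error was 0.162. The median size of the TAC difference was 1.25 among the called features and 0.33 among all. Within slides 1 and 3 the median share was 8.67% and 7.23%. Without 1 array the median share ranged from 0.0774% (without Cre TAC replicate 2) to 18.9% (without Cre TAC replicate 3). It was 18.8%, 15%, 14.1%, 12.1%, 11.3%, 10.9% and 10.5% without KO sham replicate 3, Cre sham replicate 1, KO sham replicate 1, KO sham replicate 4, Cre sham replicate 4, Cre sham replicate 2 and Cre sham replicate 3. It was 3.05% without KO TAC replicate 1.

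**Figure D3:**
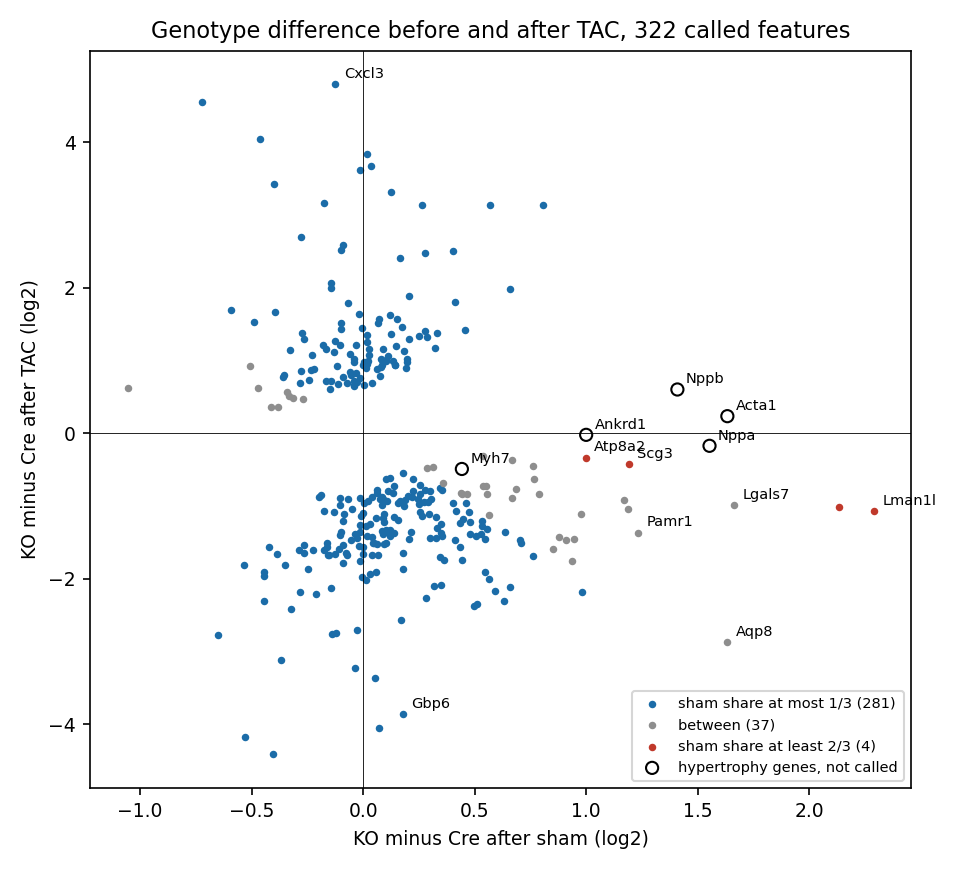
KO minus Cre after TAC (log2, vertical axis) against KO minus Cre after sham (horizontal axis) for the 322 called features, coloured by the share of the difference of responses that lay in the sham hearts. Most points sit near 0 on the horizontal axis; open circles are 5 hypertrophy genes that were not called, 4 of which lie between -0.17 and 0.60 on the vertical axis and between 1.00 and 1.63 on the horizontal one.

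A sham share of at least 66.7% was found for 3 named genes and an unnamed probe. Atp8a2, a flippase of membrane phospholipids, read -1.07, -0.73, -1.09 and -1.37 in Cre sham and -0.15, -0.11 and -0.21 in Cre TAC hearts. In KO it read -0.40, 0.47, 0.06 and -0.41 after sham and -0.30, -0.48 and -0.22 after TAC. The Cre shams were the lowest 4 hearts, and the KO shams lay above them without overlap. Its sham share was 74.8% and the sham difference 1.00 (adjusted p 0.053).

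Scg3, a granin of secretory granules, had a share of 74.0%, and Lman1l, a lectin-like protein, of 68.0%. Lman1l read -1.44, -1.30, -2.02 and -0.57 in Cre sham hearts and -0.03, 2.31, 1.33 and 0.22 in KO sham hearts. After TAC it read 2.11, 1.86 and 1.59 in Cre and 1.63, 0.59 and 1.32 in KO. The KO shams stood above the Cre shams and overlapped the hearts after TAC, and the response was 3.41 in Cre and 0.04 in KO. A second probe of Lman1l gave responses of 0.80 in Cre and -1.03 in KO, a difference of -1.83. Msrb1, a selenoprotein that repairs oxidised methionine, had 64.5%, Depdc7 62.8% and Aqp8 36.3%. Lgals7 is given no share, since its probe was not well above background in any Cre sham heart. None of these sham differences was called (adjusted p 0.052 to 0.093). Leaving out 1 array, the call of Depdc7 held in 6 of 14 fits, of Atp8a2 in 3, of Msrb1 and Scg3 in 1 and of Lman1l in 0.

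Nppa, Ankrd1, Acta1 and Nppb, markers of hypertrophy, had a larger genotype difference after sham than after TAC, and their differences of responses missed the threshold. Nppa, the precursor of atrial natriuretic peptide, read 6.63, 6.79, 5.54 and 6.70 in Cre sham and 8.37, 8.57 and 8.48 in Cre TAC hearts. KO hearts gave 7.62, 8.49, 8.38 and 7.39 after sham and 8.75, 8.35 and 8.69 after TAC. The KO shams stood above the Cre shams, and 2 of the 4 reached the range of the TAC hearts. Nppa rose by 2.19 in Cre, with 0.46 in KO (adjusted p 0.15). The genotypes differed by 1.55 after sham (adjusted p 0.052) and by -0.17 after TAC, and the difference of responses was -1.73 ± 0.34 (adjusted p 0.05001, not called).

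Ankrd1, a stretch-responsive protein of the sarcomere, differed by 1.00 after sham and -0.02 after TAC, with a difference of responses of -1.02 ± 0.26 (adjusted p 0.0895). Acta1, skeletal actin, differed by 1.63 and 0.23 (-1.40 ± 0.48, adjusted p 0.170). Nppb, the precursor of B-type natriuretic peptide, differed by 1.41 and 0.60 (-0.81 ± 0.41, adjusted p 0.336), and Myh7, the slow myosin heavy chain, by 0.44 and -0.49 (-0.93 ± 0.31, adjusted p 0.155). Over the 23 measured hypertrophy genes, TAC was called upward for 19 in Cre (82.6%, against 11.9% of all features) and 13 in KO (56.5%, against 19.5%). The median KO minus Cre difference was 0.53 after sham, with 0 called, and 0.19 after TAC, with 4 called higher (17.4%, against 8.13%) and 1 lower (Mybpc2). The 4, named after their values were seen, were Ankrd2, Fhl1, Tubb6 and Ccn1, higher in KO after TAC by 2.94, 1.20, 1.17 and 1.13.

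Genes near the targeted locus were looked at in the same way. Of 32 measured genes of chromosome 4 near Klf4, 2 were called between genotypes after sham, against 0.0638% of all features. For the difference of responses 0 were called, against 1.28% of all features. Hdhd3 read between -0.28 and 0.39 in all Cre hearts and between 1.20 and 1.53 in all KO hearts, without overlap before or after TAC. Bspry was higher in KO by 1.26 after sham, with 0.30 after TAC. Their differences of responses were -0.55 ± 0.14 and -0.96 ± 0.21 (adjusted p 0.0901 and 0.0598).

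Markers of some cell types moved with these differences, those of macrophages, neutrophils and fibroblasts. For lymphocyte, endothelial, smooth muscle with pericyte, and red blood cell markers the median difference was -0.03, 0.06, -0.12 and -0.10. It was -0.04 over all features. For cardiomyocyte markers it was -0.24, and for adipocyte and mesothelial markers 0.35. Each of these lists had 0 called. In whole-apex RNA, fewer cells of a type and less RNA per cell cannot be told apart. Of 29 macrophage and monocyte markers 22 rose in Cre after TAC (75.9%, against 11.9% of all features). In KO 4 rose (13.8%, against 19.5%) and 3 fell (10.3%, against 23.3%). The median response was 1.40 in Cre and 0.24 in KO. For 26 of 29 the difference was below 0, and 0 were called. In Cre the median level over the list, on each array, was -0.17 to 0.76 after sham and 1.29 to 2.04 after TAC. In KO it was 0.28 to 1.36 and 1.39 to 1.59. The TAC ranges of the genotypes overlapped. The median KO minus Cre difference of the markers was 0.69 after sham (0 called) and -0.51 after TAC (3 lower, 10.3% against 9.26% of all features). Folr2, a marker of resident macrophages, had a response of 0.52 in Cre and fell by 0.72 in KO (difference -1.24 ± 0.26, adjusted p 0.0527). Cx3cr1, the fractalkine receptor, had -0.05 and fell by 1.60.

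Neutrophil markers went the other way. Of 16 measured, 9 rose in Cre (56.2%, against 11.9% of all features), and in KO 12 rose (75%, against 19.5%) and 1 fell. The median difference of responses was 1.08 with 0 called. Their median level on each array was -3.95 to -2.39 in Cre TAC and -2.35 to -0.41 in KO TAC hearts, narrowly without overlap. The shams lay at -5.70 to -4.30 and -5.54 to -3.67. Retnlg, a resistin-like protein of neutrophils, rose by 2.40 in Cre and 5.26 in KO, and Mmp9, a gelatinase, had 0.00 and rose by 1.80 (adjusted p of the differences 0.117 and 0.0863). Cxcl2 and Cxcl3 were also highest in the KO TAC hearts. In Cre hearts the marker level was higher after TAC too, while Cxcl2 was not well above background there. The part of the marker levels in the results for both chemokines was not tested.

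Fibroblast markers had a median response of 0.47 in Cre and -0.42 in KO. Their median level on each array was 0.84 to 0.96 in Cre sham and 1.70 to 2.06 in Cre TAC hearts. For KO it was 0.98 to 2.32 after sham and 1.32 to 1.61 after TAC. In Cre it was higher after TAC without overlap, and in KO the ranges overlapped. Its part in the results for Dpt, Pamr1 and the complement genes was not tested. Fbln1 did not follow it in Cre. Some inflammatory genes differed more among TAC hearts of 1 group than between genotypes. Spp1, osteopontin, read 3.84, 3.84 and -0.82 in Cre TAC hearts and 3.79, 3.59 and 3.99 in KO TAC hearts, and Arg1, arginase, read 0.96, 0.57 and -4.94 and 0.31, 2.95 and 1.39. Cre TAC replicate 3 was low in both. Their differences of responses were -0.27 ± 1.50 and 2.86 ± 1.65 (adjusted p 0.948 and 0.401), and that of Saa3, an acute phase protein, was -1.66 ± 1.59 (adjusted p 0.630). Ccl8, a monocyte chemokine, rose by 3.19 in Cre, with -0.89 in KO (difference -4.08 ± 0.82, adjusted p 0.0508).

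**Figure D4:**
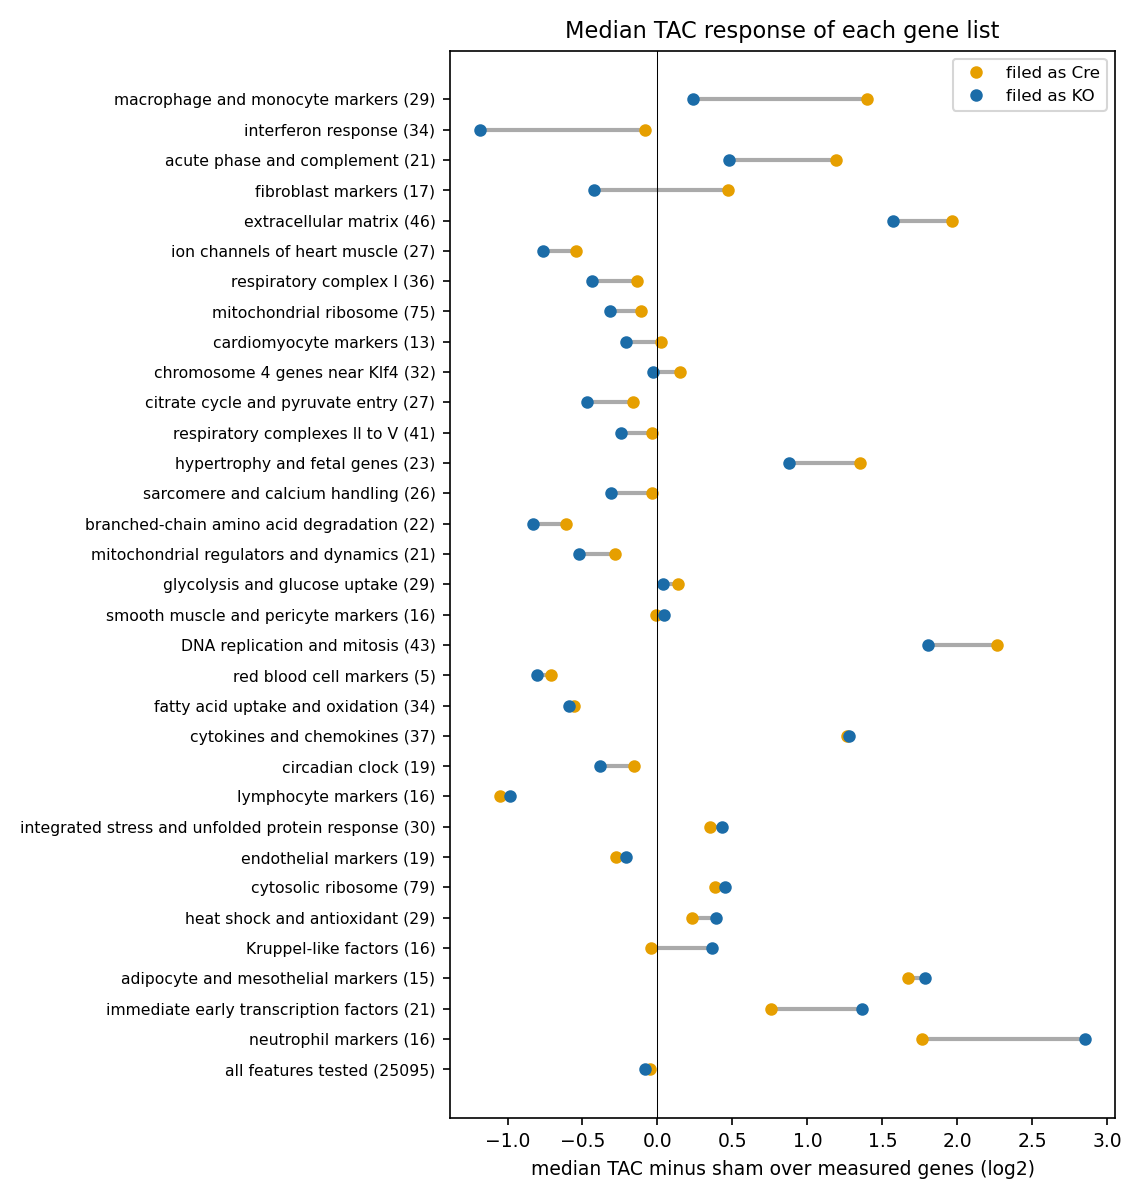
Median TAC minus sham (log2) over the measured genes of each list, whose number is in brackets, in hearts filed as Cre and as KO, with all features at the bottom. The medians lie farthest apart for macrophage markers (1.40 and 0.24), interferon genes (-0.09 and -1.18) and neutrophil markers (1.76 and 2.85).

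The metabolic lists had 0 members called for the difference of responses, and over all features falls were also more frequent in KO (23.3%) than in Cre (11.3%). In respiratory complex I, 0 of 36 genes fell in Cre and 13 in KO (36.1%). There 34 of 36 differences were below 0 (94.4%, against 54.1% of all features), with a median of -0.29 against -0.04. Mitochondrial ribosomal genes fell in 3 of 75 cases in Cre (4.00%) and 30 in KO (40.0%), with a median difference of -0.25. For fatty acid uptake and oxidation, 8 of 34 fell in Cre (23.5%) and 15 in KO (44.1%), and the median difference of -0.08 was near that of all features. Ppargc1a, the coactivator that drives mitochondrial genes, read 3.40, 3.36, 3.31 and 3.19 in Cre sham and 4.10, 3.20 and 3.91 in Cre TAC hearts. The KO values were 2.74, 2.73, 3.06 and 2.91 after sham and 2.09, 2.06 and 1.87 after TAC. KO hearts were below Cre hearts throughout and lowest after TAC, and the difference of responses was -1.34 ± 0.27 (adjusted p 0.0522). Esrra, its partner receptor, gave -0.25 ± 0.24 (adjusted p 0.635).

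Immediate early transcription factors rose in 14 of 21 cases in Cre (66.7%, against 11.9% of all features) and 16 in KO (76.2%, against 19.5%). After TAC 10 were higher in KO than in Cre (47.6%, against 8.13%) and 0 lower. The median difference of responses was 0.64, with 0 called, and 0 were called between genotypes after sham. Genes of DNA replication and mitosis rose in 37 of 43 cases in Cre (86.0%, against 11.9% of all features) and 40 in KO (93.0%, against 19.5%). Their median difference was -0.11, with 0 called (against 1.28% of all features). Cytosolic ribosomal proteins rose in 50 of 79 cases in Cre (63.3%, against 11.9%) and 61 in KO (77.2%, against 19.5%). Their median difference was 0.08, with 0 called (against 1.28%). Klf15, a Kruppel-like factor that falls in hypertrophy, fell by 0.64 in Cre and 1.75 in KO (difference -1.11 ± 0.22, adjusted p 0.05001, not called). Of the 16 measured Kruppel-like factors 0 were called for the difference of responses. After sham 1 was called between genotypes (against 0.0638% of all features), Klf3, at -1.15 in KO against Cre (adjusted p 0.0465). After TAC 3 were higher and 3 lower (18.8% each), against 8.13% and 9.26% of all features. Klf3 was named after its values were seen.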

How the data were processed

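Heart apex RNA was Cy3-labelled for Agilent arrays of 1 colour, per the labels' protocols. Each deposited scanner file gives spot intensity, background-subtracted by Feature Extraction. The authors' value table holds log2 values with column medians of 7.22 to 7.23; how background was treated there is unstated. Per the submitters' processing notes the authors used limma. Groups follow titles; the description field names the other operation for 7 of 15 samples.

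Control and outlier spots were left out, spots averaged per probe (41174), and log2 processed signal taken relative to the 75th percentile of each array. Probes entered when well above background on 3 or more of the 14 arrays. A gene took its brightest probe. RefSeq accessions named 24844 probes, and 16330 stayed unnamed. limma 3.58.1 (R 4.3.3) fitted 4 groups with slide as a block, with Benjamini-Hochberg adjustment over 25095 features (threshold 0.05). Figures used Python 3.11.15 and matplotlib 3.10.9. Tested on simulated data with the 25095 features, the difference of responses recovered 20 of 100 changes of 1 and 70 of 100 of 2 on the log2 scale, with 9 false among 99 calls.

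The genes named were, among genes with a symbol, the 12 largest called differences in each direction, the 6 of smallest p among genes dim in a group, the 5 of smallest p per class of response, the 6 of smallest p after sham, up to 3 per gene list and 10 genes set by name. The text describes a selection of these 145, chosen after their values were seen. The members and lists were chosen with earlier results of these data known. Same-numbered arrays deviated together with a median correlation of 0.06 (19 pairs, -0.42 to 0.54), so numbers do not pair samples; same-slide arrays had 0.45 (18 pairs). Alternatives covered the arrays used, block, background and scaling, filter, probe choice, variance model, array weights and each array left out.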

Additional observations from a re-analysis of the deposited data

Results flagged for a closer look

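A difference of the TAC response between the genotypes, tested as an interaction term in limma, singled out 322 features at an adjusted p under 0.05. The log2 differences below are KO minus Cre by the scanner files; those of genes dim in a group depend on background and are no bounds.

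Toward a larger response in KO the difference was 4.92 for Cxcl3, 3.63 for Cxcl2, 3.34 for Slc6a19, 3.19 for Fam24b, 2.62 for Slc7a11, 2.23 for Asprv1, 2.22 for Areg and 2.20 for B3gnt5. It was 2.14 for Clcf1, 2.10 for Tcte3, 2.06 for Adamts4, 1.65 for Eid3, 1.54 for Il20rb, 1.48 for Lbh, 1.45 for Emp2 and 1.42 for Magi1. Smaller ones were 1.40 for Pde4b, 1.14 for Nle1, 1.09 for Ifrd1, 1.06 for Txnrd1 and 0.74 for Xbp1.

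Toward a lower response in KO the difference was -4.50 for Aqp8, -4.04 for Gbp6, -4.01 for Armc2, -3.64 for Lgi1, -3.42 for Ip6k3, -3.36 for Lman1l, -3.19 for Fn3k and -2.94 for Pipox. It came to -2.86 for Ttc39a, -2.77 for Zbp1, -2.76 for Fcrls, -2.74 for Asb15, -2.73 for Rubcnl, -2.70 for Mybpc2, -2.65 for Lgals7 and -2.62 for Cnga3. Next were -2.60 for Pamr1, -2.45 for Lrat, -2.44 for Cpxm2, -2.17 for C4b, -2.13 for Asb10, -2.04 for Sesn1, -2.00 for C3 and -1.92 for Ifi27l2a. The values were -1.91 for Ckmt1, -1.88 for Fbln1, -1.72 for Lgi2, -1.63 for Col9a2, -1.61 for Irgm2, -1.61 for Scg3, -1.54 for C1s1 and -1.37 for Dpt. Further down were -1.33 for Atp8a2, -1.26 for Herpud1, -1.21 for Depdc7, -1.12 for Tmem86a, -1.03 for Msrb1 and -0.89 for Kcnh2.

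In 10 of 158 sham groups over 79 genes (6.33%), 1 of the 4 arrays stood apart by Dixon's criterion, which chance gives in about 1 in 20 groups. Msrb1 read 4.62 in Cre sham replicate 4 and 5.35 to 5.49 in the others. Pde4b read 1.67 in KO sham replicate 1 and 0.99 to 1.08 in the others. Ifrd1 read 3.08 in KO sham replicate 4 and 2.63 to 2.69 in the others. Armc2 read -2.63 in Cre sham replicate 4 and -3.37 to -3.27 in the others. Cnga3 read -3.42 in KO sham replicate 4 and -3.85 to -3.82 in the others. C1s1 read 1.47 in Cre sham replicate 1 and 1.05 to 1.12 in the others. Nppa read 5.54 in Cre sham replicate 3 and 6.63 to 6.79 in the others. Esrra read 4.81 in KO sham replicate 4 and 4.42 to 4.44 in the others. Klf15 read 3.45 in Cre sham replicate 3 and 2.86 to 2.95 in the others. Cx3cr1 read -1.36 in Cre sham replicate 4 and -2.39 to -2.31 in the others.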

How the results depend on the processing

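The 322 differences of responses became 20 with all 15 arrays, 34 with no slide block, 610 with slide as a random block (correlation 0.334), 701 after normexp and quantile normalization, 565 on the authors' values, 44 with no filter on dim probes, 1268 with array weights and 704 with trended and robust variance. They were 483 with a filter of 7 arrays, 234 with quantile normalization, 242 with median scaling and 267 with the mean over probes. The replicate number used as a block in place of the slide gave 2, with 2234, 6861, 6, 1604 and 8074 for TAC in Cre, TAC in KO, genotype after sham, genotype after TAC and the average response, and a median sham share of 20.2%; the numbers do not pair the samples, and 2 of 14 arrays were closest to their own number. Of the 59 called genes named, Pipox and Ttc39a kept their call under that block. TAC calls in Cre were 2125 with all 15 arrays, 3585 with no slide block and 9832 with array weights. Calls after TAC were 1442 and 2353 under the first 2 of these.

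Calls after sham were 4 with all 15 arrays, 6 with no slide block, 83 with the random block, 89 after normexp and quantile normalization, 25 with quantile normalization, 27 with median scaling, 73 on the authors' values, 28 with the filter of 7 arrays, 539 with array weights and 52 with trended and robust variance. The median sham share was 5.87% with no slide block, 4.08% after normexp and quantile normalization, 5.42% with median scaling, 3.47% on the authors' values, 9.04% with no filter, 3.06% with array weights and 4.92% with trended and robust variance. The value table under its own genotypes, chosen after seeing the data, gave 182 differences of responses, 5900 TAC calls in KO, 36 after sham, a share of 4.55% and a ratio of 0.718.

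Leaving out 1 array gave 17 to 687 differences of responses, 1655 to 7084 TAC calls in Cre, 981 to 5104 after TAC, 6 to 65 after sham, a share of 0.0774% to 18.9% and a ratio of 1.12 to 1.71. The cause of these changes was not tested. All 322 kept their sign under each alternative with the scanner file groups, except 318 with all 15 arrays, 321 with no filter and 310 of the 310 still tested with the filter of 7 arrays. The 322 were chosen on these same arrays, so kept signs are no independent support. Signal over background limits 28 of the 322, which were dim in a group, and of 68 called genes with several probes 6 had probes of differing sign.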

Other observations

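A few genes of nucleolar ribosome assembly were among the 116 higher differences. They were picked out after their values were seen, and no list of such genes was fixed or counted. Nop58, a core protein of the box C/D particles that methylate ribosomal RNA, rose by 0.51 in Cre and 1.47 in KO (difference 0.96 ± 0.16, limma adjusted p 0.0350). Dkc1, the pseudouridine synthase of the box H/ACA particles, fell by 0.35 in Cre and rose by 0.40 in KO (0.75 ± 0.14, adjusted p 0.0454). Nifk, a nucleolar partner of Ki-67, had 0.13 in Cre and rose by 1.16 in KO (1.03 ± 0.17, adjusted p 0.0350). Ddx27, a nucleolar helicase, had 0.05 and rose by 0.75 (0.70 ± 0.13, adjusted p 0.0433). Utp4, of the small subunit processome, had -0.14 and rose by 0.55 (0.69 ± 0.14, adjusted p 0.0496). For Nop58, Nifk and Ddx27 the sham share was below 0 (-47.9%, -27.8% and -27.1%), so the KO shams were already on the side of the later TAC difference.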
